A study of Danio rerio with 6 samples.

Results

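The genes described are 7 zebrafish genes that encode pituitary hormones or their subunits, namely pomca, gh1, prl, tshba, cga, smtla and smtlb. They were chosen by gene symbol from a deposited table of 25645 genes, and each symbol matched 1 row. RNA sequencing compared 3 samples homozygous for pikfyve-delta8 with 3 wild-type samples. The pikfyve-delta8 allele was made by CRISPR/Cas9 editing and is described as leaving fish deficient in the kinase domain of Pikfyve, a lipid kinase of late endosomes and lysosomes. The labels name no age, and their tissue entry does not name a tissue. Whether each sample was a separate animal, a pool or a repeat library is not stated either. The p-values below therefore cover only the spread among these 6 samples, part of which may be technical.

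The pituitary lies below the hypothalamus and releases peptide hormones into the blood. Hypothalamic peptides and dopamine raise or restrain the release of each hormone, and the hormones act on the interrenal gland, the thyroid, the liver, the gonads, the skin and the ion-transporting tissues. In zebrafish, pomca encodes proopiomelanocortin, the precursor of corticotropin and melanocyte-stimulating hormone. Growth hormone (gh1), prolactin (prl) and the somatolactins (smtla and smtlb) belong to one protein family, and somatolactins are known only from fish. Thyrotropin is a dimer of a specific beta subunit, encoded by tshba, and the alpha subunit encoded by cga, which is shared with the gonadotropins.

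Each sample held between 14677252 and 14949605 estimated counts in all. A single count was worth 0.0635 to 0.0728 CPM, a unit that scales counts by depth and the TMM factor. The first principal component separated the genotypes and held 73.7% of the variance. The level of the edited gene gives no check of the labels, because reads are summed over the whole gene. Transcripts of pikfyve stood at 61.2, 63.2 and 73.6 CPM in pikfyve-delta8 samples, against 56.6, 53.8 and 52.1 CPM in wild-type samples. Among 21104 tested genes, 25.1% were higher and 23.0% were lower in pikfyve-delta8 (edgeR quasi-likelihood test, adjusted p under 0.05). A call for a hormone gene, and a count of calls in any list below, is read beside these shares. Scaling by library size alone called 3824 genes higher and 6561 lower, against 5295 and 4845 with TMM. Under that scaling the median log2 fold change over all tested genes was -0.14, against 0.0039 under TMM, so fold changes are relative to the TMM scale.

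Most of the pituitary hormone genes were higher in pikfyve-delta8 samples. Of the 5 that passed the filter on low counts, pomca, prl, tshba and gh1 rose and cga did not pass the test. The share of all tested genes called higher was 25.1%. The filter removed smtla and smtlb. Without it, 6 of the 7 genes were higher, against 20.9% of 25626 genes. The hormone genes were chosen with earlier results of these data known, so these counts are a description. In bulk RNA, more hormone-producing cells, more transcript per cell and a larger share of these cells in the sampled RNA cannot be told apart. The sequenced counts were modest, from 642 counts of pomca over the 3 pikfyve-delta8 samples down to 11 of smtla.

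**Figure D1:**
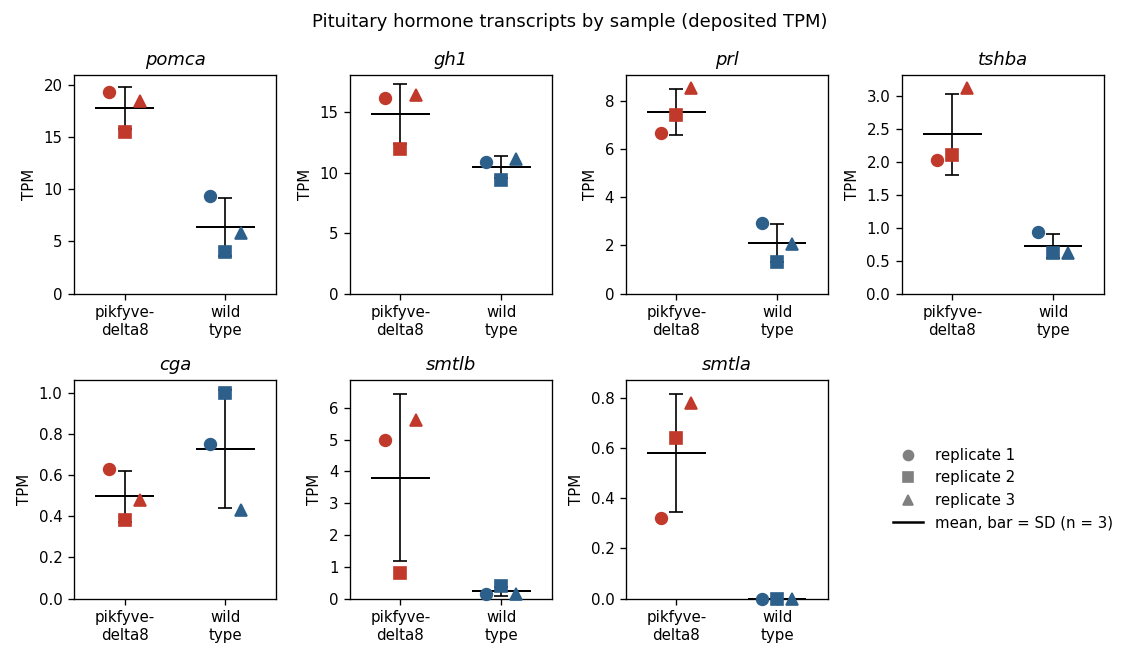
Deposited TPM of each hormone gene in each sample, with pikfyve-delta8 at the left and wild type at the right of every panel; symbols mark replicates, lines the mean and bars the SD (n = 3). The genotypes overlap only for cga. Of all genes with a count, 18.7% were higher in pikfyve-delta8 without overlap. The smtlb value of pikfyve-delta8 replicate 2 (0.79 TPM) lies far below the other pikfyve-delta8 values (5.00 and 5.63 TPM).

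The corticotropin and melanocortin precursor was the most abundant hormone transcript of the 7 in pikfyve-delta8 samples. Levels are given in TPM, which is reads per transcript length, scaled to the same sum in every sample. The pomca transcript (Gene ID 353221) stood at 19.3, 15.5 and 18.4 TPM in pikfyve-delta8 samples, against 9.36, 3.97 and 5.84 TPM in wild-type samples. Even the lowest pikfyve-delta8 sample was above the highest wild-type sample, as for 18.7% of all genes with a count, and the wild-type samples differed by more than 2-fold among themselves. The counts were 237, 189 and 216 in pikfyve-delta8 samples and 111, 48 and 69 in wild-type samples. The log2 fold change was 1.64 ± 0.25 (SE), or 3.12-fold (edgeR quasi-likelihood test, adjusted p = 0.000728). Of all tested genes, 2.76% had a larger log2 fold change. The second zebrafish proopiomelanocortin gene, pomcb, stood at 20, 23 and 21 counts in pikfyve-delta8 samples against 10, 5 and 5 in wild-type samples. It also rose, with a log2 fold change of 1.81 ± 0.35 (edgeR adjusted p = 0.00220). Since pomcb passed the filter only through its pikfyve-delta8 counts, the fit with a filter blind to genotype is given as well (edgeR adjusted p = 0.00267). On the log2(FPKM + 1) scale its log2 fold change was 0.95.

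Growth hormone transcripts showed the smallest of the called rises. The gh1 transcript (Gene ID 407639) stood at 16.2, 12.0 and 16.4 TPM in pikfyve-delta8 samples, against 10.9, 9.42 and 11.1 TPM in wild-type samples. The groups did not overlap, but pikfyve-delta8 replicate 2 lay close to the wild-type values. The log2 fold change was 0.67 ± 0.14, or 1.59-fold (edgeR adjusted p = 0.00349), and 14.3% of all tested genes had a larger one. With library size alone it was 0.52.

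Prolactin, the hormone of freshwater ion balance in fish, rose more steeply. The prl transcript (Gene ID 791526) stood at 6.65, 7.40 and 8.53 TPM in pikfyve-delta8 samples, against 2.91, 1.32 and 2.07 TPM in wild-type samples. The pikfyve-delta8 samples lay close together and all well above wild type. The log2 fold change was 2.00 ± 0.24, or 4.01-fold (edgeR adjusted p = 0.000124), and 1.74% of all tested genes had a larger one. A second prolactin gene, prl2, did not pass the filter on low counts. Together prl2, lhb and pomcb summed to 2.91 to 3.15 TPM in pikfyve-delta8 samples and 2.11 to 2.2 TPM in wild-type samples. Of that sum, pomcb alone held 2.45 to 2.84 TPM in pikfyve-delta8 and 0.62 to 1.27 TPM in wild type. The remainder was lower in pikfyve-delta8, so the rise of prl does not extend to prl2.

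The 2 subunit genes of thyrotropin gave different results. The beta subunit transcript tshba (Gene ID 353223) stood at 2.02, 2.1 and 3.12 TPM in pikfyve-delta8 samples, against 0.93, 0.61 and 0.62 TPM in wild-type samples. All pikfyve-delta8 values were above all wild-type values, on counts of 14, 14 and 21 against 6, 4 and 4. The log2 fold change was 1.92 ± 0.38, or 3.79-fold (edgeR adjusted p = 0.00238). Because tshba passed the filter only through its pikfyve-delta8 counts, it was also tested after a filter blind to genotype, which gave an adjusted p of 0.00304 (edgeR). That fit called 24.1% of genes higher. On the log2(FPKM + 1) scale, whose pseudocount is large beside such low levels, the log2 fold change was 0.93.

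The alpha subunit transcript cga (Gene ID 402987) stood at 0.63, 0.38 and 0.48 TPM in pikfyve-delta8 samples, against 0.75, 1.00 and 0.43 TPM in wild-type samples. The genotypes overlapped. The log2 fold change was -0.29 ± 0.41 (edgeR adjusted p = 0.588), so a difference was not detectable at a depth of 8 to 19 counts per sample. The cga estimates were not whole numbers in some samples, which happens when a read fits more than 1 gene, and this level is uncertain. The gonadotropin beta subunit gene lhb, which pairs with the same alpha subunit, held 2, 1 and 0 counts in pikfyve-delta8 samples and 1, 2 and 4 in wild-type samples. No row carried the symbol fshb.

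Of the somatolactin transcripts, smtlb differed widely among pikfyve-delta8 samples and smtla had the fewest counts of the 7. The smtlb transcript (Gene ID 553408) stood at 5.00, 0.79 and 5.63 TPM in pikfyve-delta8 samples, against 0.14, 0.40 and 0.14 TPM in wild-type samples. Replicates 1 and 3 of pikfyve-delta8 held 38 and 41 counts and replicate 2 held 6, against 1, 3 and 1 counts in wild-type samples. Without the filter the log2 fold change was 4.12 ± 0.83, or 17.3-fold (edgeR adjusted p = 0.00374). With 1 sample also left out it ran from 3.77 (without pikfyve-delta8 replicate 3) to 4.79 (without wild type replicate 2). The highest adjusted p of those fits was 0.0236, without wild type replicate 1 (edgeR).

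The smtla transcript (Gene ID 572522) held 2, 4 and 5 counts in pikfyve-delta8 samples, and no smtla read was counted in any wild-type sample. Taking 3 counts in the 3 wild-type samples combined as the floor, or 0.0641 CPM, the observed pikfyve-delta8 level was 4.06-fold above that floor. That figure takes the pikfyve-delta8 counts as exact, and with their own counting error the fold could be smaller. The unfiltered test gave an adjusted p of 0.0156 (edgeR), resting on these 11 counts.

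**Figure D2:**
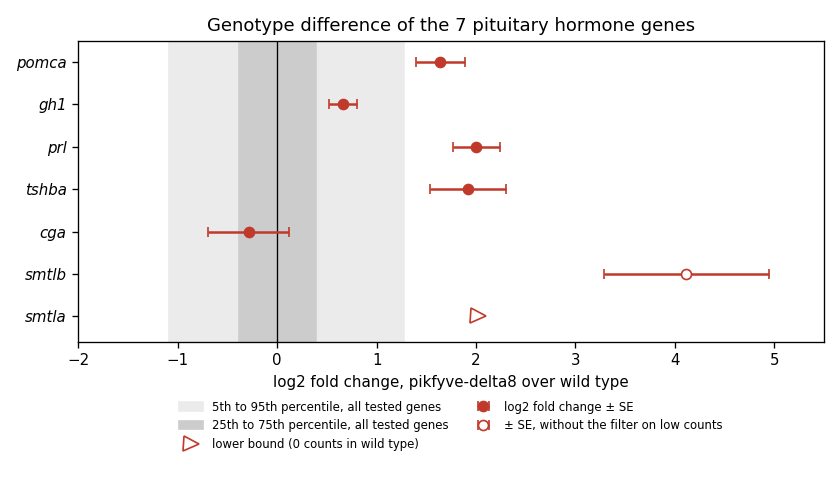
Log2 fold change of each hormone gene, pikfyve-delta8 over wild type, with bars of 1 SE. Filled points come from the fit with the filter on low counts, and the open circle for smtlb (4.12) from the fit without it. The triangle for smtla marks a lower bound that allows for counting error in wild type only. Grey bands show the spread of all 21104 tested genes, of which the widest runs from -1.08 to 1.27, and prl (2.00), tshba (1.92) and pomca (1.64) lie to its right while gh1 (0.67) and cga (-0.29) lie inside it.

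The order of the transcripts by TPM differed between the genotypes at the top. In pikfyve-delta8 samples the mean levels, with SD and n = 3, were 17.7 ± 1.97 TPM for pomca, 14.9 ± 2.51 TPM for gh1 and 7.53 ± 0.95 TPM for prl. In wild-type samples gh1 led with 10.5 ± 0.93 TPM, followed by pomca with 6.39 ± 2.74 TPM and prl with 2.1 ± 0.80 TPM. In pikfyve-delta8 the ranges of pomca and gh1 overlapped, although pomca was above gh1 in all 3 samples. In wild type gh1 was above pomca in all 3 samples without overlap. Below these, the pikfyve-delta8 means were 3.81 TPM for smtlb, 2.41 TPM for tshba, 0.58 TPM for smtla and 0.50 TPM for cga. Neighbouring smtlb and tshba overlapped there, as did smtla and cga. In wild type cga (0.73 TPM) and tshba (0.72 TPM) overlapped, and smtlb (0.23 TPM) came after them.

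The 7 transcripts together made up 50.1, 38.8 and 53.3 TPM in pikfyve-delta8 samples, against 25, 16.7 and 20.2 TPM in wild-type samples. The mean of the sum was 47.4 ± 7.64 TPM in pikfyve-delta8 and 20.6 ± 4.16 TPM in wild type (SD, n = 3 each), a ratio of 2.30. Transcripts of pomca, gh1 and prl accounted for 81.2% to 89.9% of that sum in pikfyve-delta8 samples and 88.0% to 94.1% in wild-type samples. The sum was taken over genes chosen with their results known, so it is a description.

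Ratios of hormone transcripts within a sample do not depend on the scaling between samples, and 4 such ratios of FPKM were compared. The pomca to gh1 ratio was 1.19, 1.3 and 1.12 in pikfyve-delta8 samples, against 0.857, 0.421 and 0.525 in wild-type samples. The precursor transcript thus exceeded that of gh1 in every pikfyve-delta8 sample and in no wild-type sample. The gh1 to prl ratio was 2.43, 1.62 and 1.92 in pikfyve-delta8 samples, against 3.74, 7.13 and 5.37 in wild-type samples, again without overlap.

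The pomca to prl ratio was 2.89, 2.09 and 2.15 in pikfyve-delta8 samples, against 3.21, 3.00 and 2.82 in wild-type samples, and the groups overlapped. The tshba to cga ratio was 3.26, 5.48 and 6.57 in pikfyve-delta8 samples, against 1.23, 0.60 and 1.44 in wild-type samples. The differences of the mean log2 ratio, pikfyve-delta8 minus wild type, were 1.06 for pomca to gh1, -1.41 for gh1 to prl, -0.35 for pomca to prl and 2.26 for tshba to cga. The exact permutation p was 0.10 for each ratio without overlap, the smallest that 3 samples against 3 allow (two-sided). It was 0.20 for pomca to prl in the same exact permutation test. Adjusted over the 4 ratios, the exact permutation p was 0.133 for the 3 without overlap and 0.20 for pomca to prl. None of the 4 could pass the threshold. The smtlb to smtla ratio could not be formed, because smtla was at 0 in wild type.

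**Figure D3:**
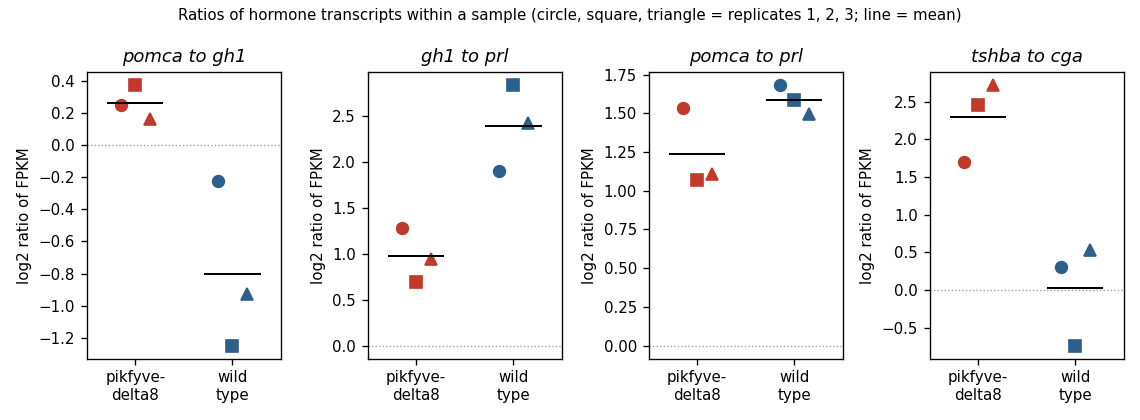
Log2 ratio of the FPKM of 2 hormone genes within each sample, with pikfyve-delta8 at the left and wild type at the right; circles, squares and triangles mark replicates 1, 2 and 3 and lines the mean. The genotypes do not overlap for pomca to gh1, gh1 to prl and tshba to cga, and they overlap for pomca to prl.

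Of 20 tested transcription factors that specify pituitary cells 2 rose, 5 fell and 13 did not pass the test, with a median log2 fold change of -0.18 against 0.0039 for all genes. Of all tested genes 25.1% were higher and 23.0% lower, so the share of factors that fell is near that of all genes. Several of these factors also act in the eye and brain, so their levels are not those of the pituitary alone. The factor pou1f1, which zebrafish need to form the cells that make growth hormone, prolactin and thyrotropin, held 3, 5 and 9 counts in pikfyve-delta8 samples and 3, 1 and 1 in wild-type samples. Those counts overlap. The unfiltered log2 fold change was 1.82 ± 0.74, which did not pass the test at these low counts (edgeR adjusted p = 0.0704). The corticotrope factor tbx19 averaged 0.304 ± 0.209 CPM in pikfyve-delta8 and 0.107 ± 0.075 CPM in wild type (SD, n = 3 each). Its adjusted p was 0.200 without the filter (edgeR). In TPM its means were closer, 0.28 in pikfyve-delta8 and 0.22 in wild type. Its estimated counts were not all whole numbers, so this level is uncertain.

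The early pituitary factor lhx3 averaged 2.27 ± 0.42 CPM in pikfyve-delta8 and 2.14 ± 0.09 CPM in wild type (SD, n = 3 each), and did not pass the test (edgeR adjusted p = 0.775). The factors that rose were pax7b, at 16.4 ± 0.44 CPM in pikfyve-delta8 against 11.4 ± 1.00 CPM in wild type, and sox2, a progenitor factor. The log2 fold change of pax7b was 0.52, whereas its paralog pax7a fell, at -0.57 (edgeR adjusted p = 0.0142). The sox2 call (adjusted p = 0.0432) was lost with upper-quartile scaling, library size alone, DESeq2 and both FPKM settings. It was also lost without pikfyve-delta8 replicate 1, wild type replicate 2 or wild type replicate 3, with adjusted p up to 0.367 over the alternatives. Those that fell most clearly were six3a, of the anterior neural plate and eye, with a log2 fold change of -0.62 ± 0.10, and the neurogenic factor neurod4, at -0.46 ± 0.11. With library size alone 1 factor rose and 10 fell, a scaling under which 3824 of all 21104 tested genes were called higher and 6561 lower.

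Genes that process prohormones and build dense-core granules were mostly lower in pikfyve-delta8. Of 20 tested, 12 fell and 3 rose, with a median log2 fold change of -0.53, against 23.0% of all tested genes lower and 25.1% higher. The prohormone convertase gene pcsk2 averaged 4.45 ± 0.93 CPM in pikfyve-delta8 and 9.97 ± 1.04 CPM in wild type (SD, n = 3 each), a log2 fold change of -1.16 ± 0.17 (edgeR adjusted p = 0.000504). The carboxypeptidase gene cpe averaged 199 ± 17.0 CPM in pikfyve-delta8 and 311 ± 1.54 CPM in wild type. The granule GTPase gene rab3aa fell by 1.04 on the log2 scale. The genes that rose included rab27a, whose product tethers secretory organelles (log2 fold change 0.82 ± 0.16), and pam, whose product amidates peptides (0.48 ± 0.08). The third was the synaptotagmin gene syt7b (1.1 ± 0.38), whose call was lost with library size alone, with DESeq2 and on leaving out any sample but pikfyve-delta8 replicate 2 (adjusted p up to 0.151). It passed the filter only through its pikfyve-delta8 counts, and the filter blind to genotype gave an adjusted p of 0.0430 (edgeR).

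The other convertase gene, pcsk1, stood at 0.65, 1.44 and 4.79 TPM in pikfyve-delta8 samples, against 8.34, 7.41 and 7.16 TPM in wild-type samples. The pikfyve-delta8 samples were all lower but differed widely. Its log2 fold change of -1.64 ± 0.53 (edgeR adjusted p = 0.0469) was -2.62 without pikfyve-delta8 replicate 3. The call was lost without the filter (adjusted p = 0.0786). It was also lost on leaving out pikfyve-delta8 replicate 2 (adjusted p = 0.110) or any wild-type sample (adjusted p = 0.0978 to 0.112). Neurons share these genes, and neuron markers moved the same way. Of 16 neuron markers 15 fell and 0 rose, against 23.0% of all tested genes lower and 25.1% higher. Their summed level was 478 to 657 TPM in pikfyve-delta8 samples against 1170 to 1210 TPM in wild-type samples, with no marker at 0 in all samples. The part of neurons in the granule gene result was not tested.

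Among 27 tested hypothalamic releasing factors and pituitary receptors 7 fell, 2 rose and 18 did not pass the test, with a median of -0.20. The share that fell is near the 23.0% of all tested genes called lower, so the count of falls says nothing particular about the list. The share that rose is below the 25.1% of all tested genes called higher. The list was not tested as a whole, and only some of its members, called or not, are given singly. Corticotropin-releasing hormone (crhb), which drives release of corticotropin, stood at 2.57, 2.69 and 2.79 TPM in pikfyve-delta8 samples, against 6.82, 7.36 and 7.34 TPM in wild-type samples. That is a log2 fold change of -1.25 ± 0.18 (edgeR adjusted p = 0.000385), opposite in sign to that of pomca. Thyrotropin-releasing hormone (trh) averaged 4.64 ± 1.12 CPM in pikfyve-delta8 and 9.64 ± 0.83 CPM in wild type (SD, n = 3 each), a log2 fold change of -1.05 ± 0.18.

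Dopamine restrains prolactin release through D2 receptors, which neurons express as well. The receptor gene drd2a averaged 0.965 ± 0.254 CPM in pikfyve-delta8 and 3.14 ± 0.59 CPM in wild type, and drd2b averaged 2.79 ± 0.58 CPM in pikfyve-delta8 and 8.85 ± 0.44 CPM in wild type (SD, n = 3 each). Both fell, by 1.69 and 1.66 on the log2 scale (edgeR adjusted p = 0.000836 and 6.73e-05). On the log2(FPKM + 1) scale drd2b fell by 0.84. The neuropeptide genes gnrh2 and avp rose, with log2 fold changes of 1.4 ± 0.29 and 1.28 ± 0.32, and the avp call was lost with DESeq2 (adjusted p = 0.0529). Since avp passed the filter only through its pikfyve-delta8 counts (18, 18 and 24, against 7, 9 and 11 in wild type), it was also tested after the filter blind to genotype (edgeR adjusted p = 0.00930). Growth hormone-releasing hormone (ghrh) held 6, 3 and 0 counts in pikfyve-delta8 samples and 2, 3 and 7 in wild-type samples, and did not pass the unfiltered test (edgeR adjusted p = 0.842). The part of the lower neuron markers in the falls of crhb, trh, drd2a and drd2b was not tested.

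Receptors and first signalling steps of the hormones went in both directions. Of 20 tested genes 4 rose and 2 fell, and 14 did not pass the test. Of all tested genes 25.1% were higher and 23.0% lower. The share that rose is thus near that of all genes, and the share that fell is below it. The growth hormone receptor gene ghrb stood at 26.7, 19.7 and 23.0 TPM in pikfyve-delta8 samples, against 9.36, 7.39 and 7.6 TPM in wild-type samples, a log2 fold change of 1.68 ± 0.13 (edgeR adjusted p = 1.46e-05). Its paralog ghra averaged 3.84 ± 0.53 CPM in pikfyve-delta8 and 4.00 ± 0.21 CPM in wild type (SD, n = 3 each), and did not pass the test (edgeR adjusted p = 0.809). The prolactin receptor gene prlra rose by a log2 fold change of 0.76 ± 0.10, and prlrb stood at 0.63 ± 0.43 without passing the test (edgeR adjusted p = 0.253).

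Transcripts of cish, a feedback inhibitor of growth hormone, prolactin and cytokine receptors, averaged 82.2 ± 9.52 CPM in pikfyve-delta8 and 37.1 ± 3.03 CPM in wild type (SD, n = 3 each). The fourth gene that rose, named after its values were seen, was socs2, which encodes an inhibitor of the same pathway (29.7 CPM in pikfyve-delta8 and 13.4 CPM in wild type on average, edgeR adjusted p = 5.19e-05). Transcripts of igf1, the growth factor that growth hormone induces, averaged 1.42 ± 0.05 CPM in pikfyve-delta8 and 1.43 ± 0.24 CPM in wild type (edgeR adjusted p = 0.973). The melanocortin receptor accessory gene mrap2a and the opioid receptor gene oprd1a fell, by 1.00 and 1.70 on the log2 scale. The oprd1a call was lost with DESeq2 (adjusted p = 0.0512) and on leaving out wild type replicate 3 (0.0554 after adjustment). It passed the filter only through its wild-type counts, and the filter blind to genotype gave an adjusted p of 0.0132 (edgeR). Neutrophil markers, which belong to cells that respond to cytokines, were higher for 9 of 9 tested genes, against 25.1% of all tested genes. Their median log2 fold change was 2.16, and single markers ran from 0.51 (cpa5) to 5.07 (mmp13a). Their summed level was 2990 to 3460 TPM in pikfyve-delta8 samples against 2070 to 2160 TPM in wild-type samples, and their part in the rise of cish was not tested.

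In the thyroid axis 4 of 16 tested genes rose and 3 fell, shares near the 25.1% and 23.0% of all tested genes. Of the thyroid hormone receptor genes, thraa rose, at 8.55 ± 1.34 CPM in pikfyve-delta8 against 5.4 ± 0.39 CPM in wild type (SD, n = 3 each). The receptor gene thrb fell, at 5.5 ± 1.89 CPM in pikfyve-delta8 against 10.6 ± 0.75 CPM in wild type (SD, n = 3 each). The log2 fold change of thrab was 0.12, which did not pass the test (edgeR adjusted p = 0.473). The thyroid hormone-inactivating deiodinase gene dio3b rose by a log2 fold change of 0.97 ± 0.24, and pax2a, a factor of thyroid, eye and brain, fell by 0.57. The thyrotropin receptor gene tshr held 3, 2 and 6 counts in pikfyve-delta8 samples and 5, 4 and 4 in wild-type samples, and did not pass the unfiltered test (edgeR adjusted p = 0.92). In the interrenal list 2 of 17 tested genes rose and 3 fell, both below those shares of all tested genes. The genes that rose were pck1, a glucocorticoid-responsive gene of gluconeogenesis, at 1020 ± 205 CPM in pikfyve-delta8 against 463 ± 68.0 CPM in wild type, and the cortisol-inactivating gene hsd11b2, with a log2 fold change of 0.66 ± 0.17. The mineralocorticoid receptor gene nr3c2 and the nuclear receptor gene nr0b1 fell by 0.91 and 0.82 on the log2 scale. Those calls were lost on leaving out wild type replicate 1 for nr3c2 (adjusted p = 0.0595) and wild type replicate 3 for nr0b1 (adjusted p = 0.0630). The glucocorticoid receptor gene nr3c1 fell by 0.19, a call lost without the filter, with DESeq2 and on leaving out any sample but pikfyve-delta8 replicate 3 (adjusted p up to 0.170). Of these 5 genes hsd11b2 encodes an enzyme that acts on a steroid, and no other steroid enzyme gene of the list passed the test. Like pck1, the listed genes fkbp5 and tsc22d3 are glucocorticoid-responsive, but neither rose. Their log2 fold changes were -1.06 and -0.18, and neither passed the test (edgeR adjusted p = 0.155 and 0.221). The corticotropin receptor gene mc2r had 2 counts over the pikfyve-delta8 samples and 3 over the wild-type samples.

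Markers of other endocrine and glial cells moved in both directions. Their counts lie near the shares of all tested genes, 25.1% higher and 23.0% lower, and say nothing particular about these cells. Of 10 tested endocrine pancreas markers 2 rose and 3 fell, with a summed level of 317 to 368 TPM in pikfyve-delta8 samples and 362 to 379 TPM in wild-type samples. The glucagon gene gcga rose by a log2 fold change of 1.4 ± 0.11, and pax6b fell by 0.99. Of 12 tested pituicyte and astroglia markers 4 rose and 3 fell, with a summed level of 1450 to 1710 TPM in pikfyve-delta8 samples and 1540 to 1640 TPM in wild-type samples. The glutamine synthetase gene glulb rose by 1.08 ± 0.07, whereas fabp7a, which encodes a brain fatty acid-binding protein, fell by 0.50.

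**Figure D4:**
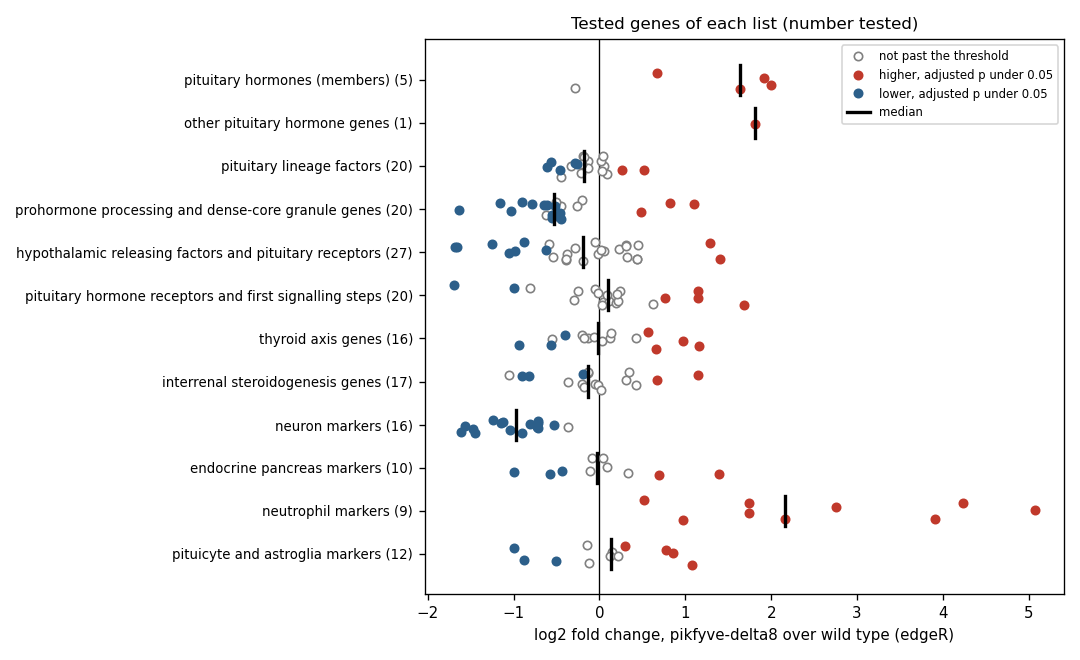
Log2 fold change (pikfyve-delta8 over wild type) of every tested gene of the hormone genes, the other hormone-axis lists and the marker lists of other cells, with the number tested in brackets; red points rose, blue points fell, open points did not pass the test and black bars are medians. The hormone genes have a median of 1.64, the granule genes of -0.53 and the neuron markers of -0.97.

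Genes whose profile over the 6 samples was most like that of a hormone gene were found by the root mean square difference of log2 CPM, each gene centred on its own mean. The search covered only tested genes above a minimum mean count, with a count in every sample and without a clone or locus name. It left out the hormone genes themselves. The nearest to pomca was twf2b (0.216), which encodes an actin-binding twinfilin, and the nearest to prl was cst14a.1 (0.170), a cystatin gene that was also the second nearest to pomca (0.230). The nearest to gh1 were the clock gene per1b (0.0536) and mslnb (0.0589). The nearest to tshba was the oxygen-sensing hydroxylase gene egln2 (0.0876). The nearest to cga was htra3b (0.229). The 6 samples fall into 2 genotypes, so genes with a similar fold change score as alike.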

How the data were processed

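Transcript levels were read from 1 deposited table of estimated counts, FPKM and TPM per gene and sample. The deposited estimated counts hold fractions in 10.7% to 11.6% of each sample's values (tolerance 0.005), as RSEM writes them. The authors also deposited FPKM, scaled by transcript length and depth, and TPM, scaled to a fixed sum per sample. Tools listed in the submitters' processing notes are RSEM 1.3.1, Bowtie2 and DESeq2 1.4.5, with the build GRCz11 and no stated roles. The sources used here do not state strandedness, so antisense reads cannot be told apart.

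After rounding, filterByExpr (minimum count 10) and TMM, estimated counts entered the robust quasi-likelihood test of edgeR 4.0.16 (R 4.3.3) for genotype, two-sided, with Benjamini-Hochberg adjustment over all genes and a threshold of 0.05. SE is the log2 fold change divided by the square root of F. Alternatives used DESeq2 1.42.0 and limma 3.58.1, with other scalings and filters, log2 FPKM with a pseudocount of 1 or 0.1 (genes reaching FPKM 1 in 3 or more samples), a replicate block, and each sample left out. The filter blind to genotype (mean of at least 5 counts) and the unfiltered fits with a sample left out were added after the data were seen. Ratios were compared by an exact permutation test in scipy 1.17.1. The procedure was tested on simulated counts, in which only genes with a wild-type mean of at least 5 counts were changed. That simulation changed far fewer genes than were called here. It did not cover a change in tshba, smtlb or smtla, whose wild-type means were lower.

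All 7 hormone genes are described. From each other list, up to 2 genes risen and 2 fallen with the smallest p could be named (1 each for marker lists), with a fixed set of axis genes named whatever their value. Some of that set are not reported here, and socs2, syt7b and nr3c1 were named after their values were seen. The hormone genes and lists were chosen with earlier results of these data known. The floor covers counting error in the wild-type samples only. No 2 samples agreed within counting noise (mean chi-square per gene 2.32 or more, against 1 under counting noise alone). Pairs of wild-type samples gave 2.32 to 2.79 and pairs of pikfyve-delta8 samples 11.4 to 18.9, so the pikfyve-delta8 samples differed more among themselves. Sequences and genomic positions are not used here.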

Additional observations from a re-analysis of the deposited data

How the results depend on the processing

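Every hormone gene kept its direction and its side of the threshold in all 96 values recomputed under the alternatives. The number called was 3 with the stricter filter, 6 without a filter and with DESeq2, and 4 or 5 otherwise. Highest adjusted p over the alternatives that tested the gene was 0.00657 for pomca, 0.00173 for prl, 0.0232 for gh1 and 0.0171 for tshba. For smtla it reached 0.0445 without the filter and without wild type replicate 1. Of 733 values for 44 other genes, 34 lost a call, 1 gained one and 7 changed sign. The sign changes were in lhx3, ghra and igf1, none of which was called. The log2 fold change of lhx3 was -0.055 with library size alone, -0.047 and -0.070 with log2 FPKM and a pseudocount of 1 and 0.1, and -0.041 to 0.22 with 1 sample left out. With 1 sample left out that of ghra was -0.17 to 0.0051 and that of igf1 -0.13 to 0.11, and with limma-voom that of igf1 was 0.0034. For these the cause was not tested.

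Same-numbered samples did not deviate together (correlations of -0.075, 0.050 and -0.048), and 1 of 3 correlated best with its own number. No pairing by replicate number was thus detected, although the labels do not say whether the samples were paired. With the replicate block 9575 genes were called, against 10140 without it, the log2 fold change of prl was 2.02 and the calls of pcsk1 and nr3c1 were lost (adjusted p = 0.0645 and 0.0847). Leaving out 1 sample, the pomca to gh1 difference ran from 0.84 to 1.35 on the log2 scale and that of gh1 to prl from -1.66 to -1.19. Low counts limit smtla, smtlb, tshba, cga and pou1f1.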
